A study of Homo sapiens with 3 samples.

Results

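The genes described here are 49 genes of S phase and DNA replication, chosen by symbol from their roles in licensing, the replication fork, the DNA polymerases, nucleotide supply, histone supply and chromatin assembly, and S phase entry. They were read on 94 of the 41091 probe sets that the array's annotation assigns to 1 gene, and they are 49 of 19775 genes so named. The samples were 3 Affymetrix arrays, each of total RNA from HCT116, an established human colorectal carcinoma cell line. A scrambled short hairpin RNA served as the control (1 array), and UHRF1 was depleted with shRNA-2 (1 array) or shRNA-5 (1 array), here called hairpin 2 and hairpin 5. In all 3 samples the hairpin was delivered by lentivirus and the cells were taken after 6 days of puromycin selection, so every sample had been infected and drug-selected. The study asked which genes depend on UHRF1. The hairpin arrays share a source label and are treated as 2 replicates of UHRF1 depletion, but each carries a different hairpin and the labels name no separate cultures, so the spread between them may come from the hairpin, the culture or the array.

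Replication starts when the origin recognition complex, with CDC6 and CDT1, loads the MCM2 to MCM7 helicase onto DNA in G1. In S phase CDC45 and the GINS complex join the helicase, polymerase alpha with its primase lays down primers, and the clamp PCNA, loaded by replication factor C, holds polymerases delta and epsilon on the template. E2F transcription factors switch on many of these genes at S phase entry, and cyclin E drives that step. UHRF1 binds hemimethylated DNA behind the fork and is needed there to bring in DNMT1, the maintenance DNA methyltransferase, which is why replication genes are a natural set to read beside its depletion.

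UHRF1 transcript read 8.54 in the control and 6.20 and 6.67 with hairpins 2 and 5, on the log2 scale of the deposited values. Here and below, levels are given in the order control, hairpin 2, hairpin 5, and differences are hairpin minus control on that log2 scale, hairpin 2 first. UHRF1 differed by −2.35 and −1.88, a mean of −2.11 ± 0.33 (SD, n = 2 hairpins), with an unadjusted limma p of 6.29e-04 and an adjusted limma p of 0.999. These are arrays of bulk cells, so fewer cells in S phase and less transcript per cell cannot be told apart. Array medians over all probe sets lay between 2.98 and 3.04. Of 10 colon epithelial markers, 8 were at the level at which genes were tested and LGALS4 and VIL1 were not. The epithelial marker EPCAM read 10.2, 10.1 and 9.93, and the keratin gene KRT18 read 12.3, 12.2 and 12.5. Others of the list differed more: the cadherin gene CDH1 read 6.16, 7.14 and 6.33, KRT8 differed by 0.41 and 0.86, and CDX2 by 0.35 and 0.43. The summed level over the epithelial list was 69.5, 70.6 and 70.3. Of 6 genes of a leukocyte list on the array 5 lay under the tested level, PTPRC among them, as did 6 of 8 fibroblast and endothelial markers. The remaining gene of the leukocyte list was HBB, a haemoglobin gene of red cells, which read 4.0, 4.4 and 3.8. The summed level over the leukocyte list was 17.8, 18.3 and 18.0. The fibroblast and endothelial markers at the tested level were COL1A1, which read 5.82, 6.39 and 5.75, and PECAM1, which read 3.34, 3.38 and 3.60. The summed level over the fibroblast and endothelial list was 25.6, 25.9 and 26.1. Hairpin 2 also stood apart in interferon-stimulated genes. All 19 of that list on the array were higher than the control with hairpin 2, by 0.06 to 6.79 with a median of 2.80, and 12 of 19 were higher with hairpin 5, where the range was −0.36 to 2.19 and the median 0.17. The part of this response in the values below was not tested.

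The replication genes as a whole stayed close to the control. All 49 were at or above the level at which genes were tested (log2 3.28, the 40th percentile of genes), and their differences had medians of 0.10 and −0.04, beside 0.03 and −0.06 over all 11865 genes tested. With both hairpins 16 of 49 (32.7%) were higher than the control, where 29.0% of all genes tested were, and 15 (30.6%) were lower, where 32.3% were. The other 18 (36.7%) had opposite signs, where 38.7% of all genes had opposite signs or no difference. All 3 shares were near those of all genes. At the size of 1.5-fold with both hairpins there was 1 higher gene, SLBP, and 0 lower, beside 0.759% and 1.59% of all genes tested.

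**Figure D1:**
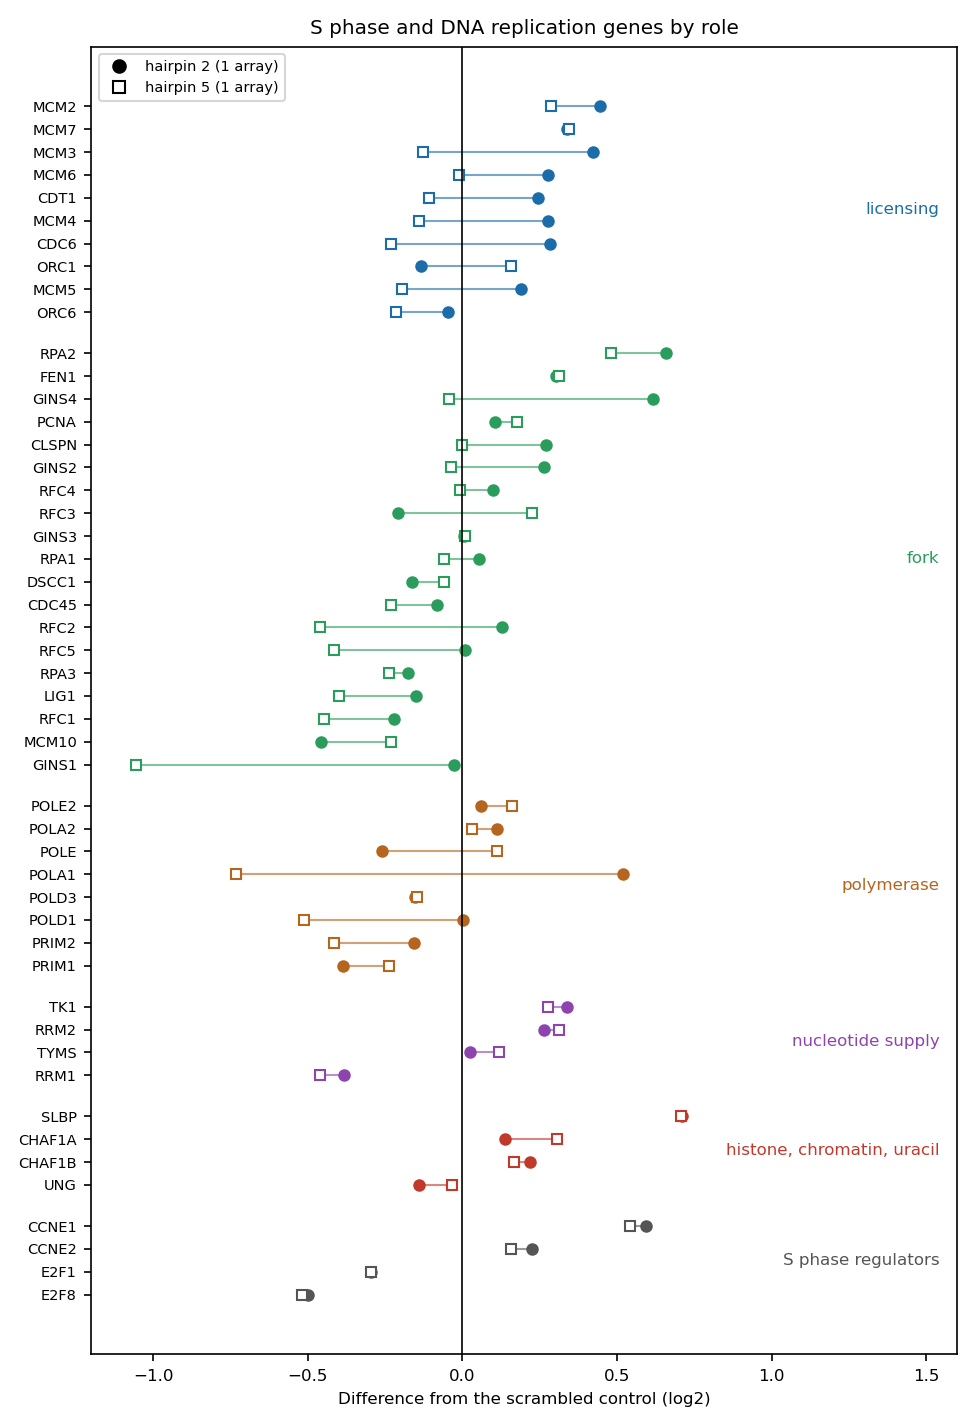
Difference from the scrambled control (log2, horizontal axis) of each of the 49 genes, grouped by role and ordered by the mean of the hairpins; filled circles are hairpin 2 and open squares hairpin 5, 1 array each. SLBP, CCNE1 and RPA2 lie furthest to the right with both hairpins, E2F8 and RRM1 lie to the left with both, and GINS1 and POLA1 have the widest gaps between hairpins.

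No replication gene passed limma's test over all genes. With Benjamini-Hochberg adjustment over the 11865 genes, 0 of 49 members were under 0.05 (0% of all genes tested were), and the lowest adjusted p in limma was 0.999. At an unadjusted limma p under 0.05 there was 1 member, SLBP, which is 2.04% of members beside 2.33% of all genes tested. The fit has 1 residual degree of freedom, from the pair of hairpins, and takes the spread of the control to be theirs. The 95% interval of a member's mean difference had a median half-width of 0.67 before any adjustment for the number of genes. The adjusted test has a higher limit, since even UHRF1 at −2.11 had an adjusted limma p of 0.999, so its count of 0 says little about the members.

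A further count set each gene against the gap between the hairpins, the only spread these arrays give. In 12 members (24.5%, against 12.5% of all genes tested) both hairpins were higher than the control by more than their gap, and in 7 (14.3%, against 15.0%) both were lower by more than their gap. The higher ones were CCNE1, CCNE2, CHAF1B, FEN1, GINS3, MCM2, MCM7, PCNA, RPA2, RRM2, SLBP and TK1, of which GINS3 differed by 0.01 and 0.01. The lower ones were E2F1, E2F8, MCM10, POLD3, PRIM1, RPA3 and RRM1. The median gap was 0.16 for members and 0.25 for all genes tested, and a smaller gap makes this count easier to meet. The median size of the mean difference was 0.17 for members and 0.18 for all genes. Both hairpins are set against the same control array, so any error in that array moves both alike, and its size cannot be measured here.

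**Figure D2:**
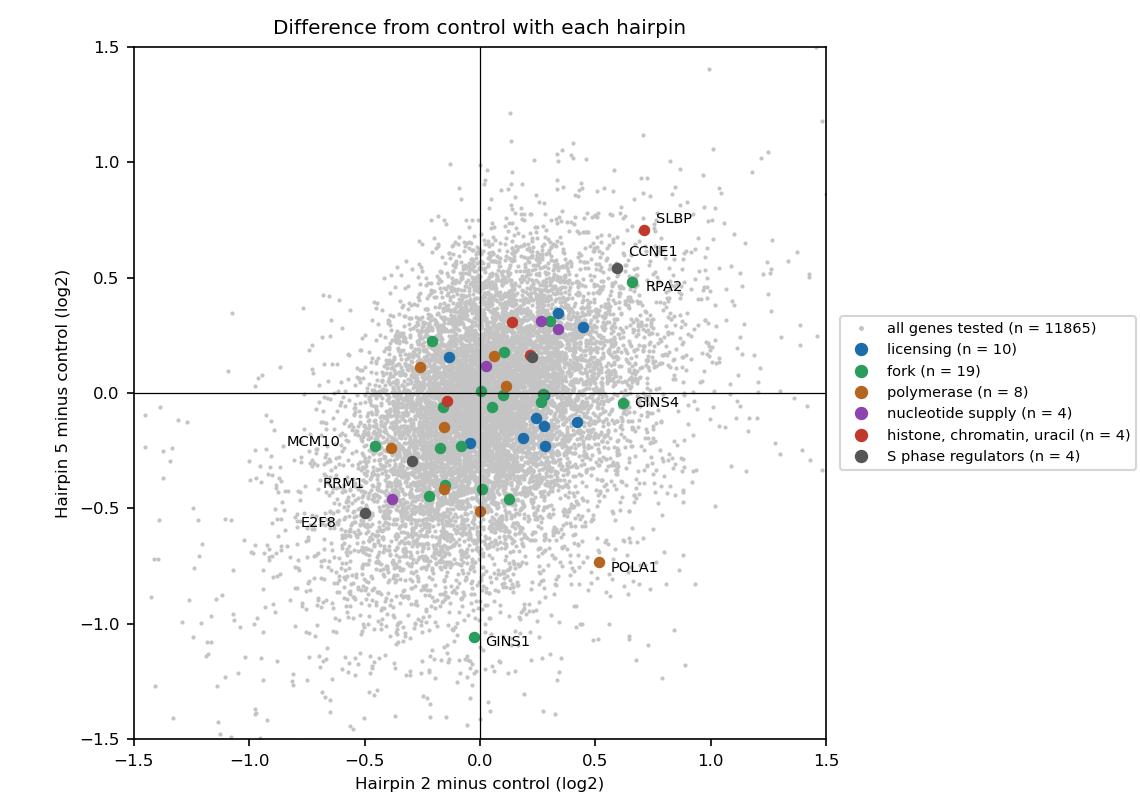
Difference from control with hairpin 2 (horizontal, log2) against hairpin 5 (vertical, log2); grey points are all 11865 genes tested, of which 111 lie outside the axes, and coloured points are the 49 replication genes by role. The replication genes lie within the grey cloud, with SLBP, CCNE1 and RPA2 at its upper right; both axes share the single control array.

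Licensing genes differed between the hairpins more than they differed from the control in common. Their median gap was 0.32, and the median size of their mean difference was 0.10. Over all genes tested the gap was also the larger, at 0.25 beside 0.18. The median difference of licensing genes was 0.28 with hairpin 2 and −0.12 with hairpin 5, beside 0.03 and −0.06 over all genes tested. On the brightest probe sets opposite signs were found in 7 of 10, where 38.7% of all genes had opposite signs or no difference. The subunits of the replicative helicase, MCM2 to MCM7, were higher than the control with hairpin 2 in 6 of 6, by 0.19 to 0.45, where 53.6% of all genes tested were higher. With hairpin 5 they ranged from −0.19 to 0.35 and 2 of 6 were higher, where 42.7% of all genes were. Hairpin 2 is also the array with the larger rise in interferon-stimulated genes (median 2.80, beside 0.17 with hairpin 5). A link between that rise and the MCM values was not tested.

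MCM2 read 8.60, 9.04 and 8.88. MCM7 read 8.72, 9.06 and 9.07. These are the subunits that were above the control with both hairpins, MCM2 by 0.45 and 0.29 and MCM7 by 0.34 and 0.35, and for both the hairpins were closer to each other than to the control. MCM3 read 8.50, 8.92 and 8.37, so that hairpin 2 was above the control and hairpin 5 below it. MCM5 (0.19 and −0.19), MCM4 (0.28 and −0.14) and MCM6 (0.28 and −0.01) had the same order of arrays. Over the 12 probe sets of MCM2 to MCM7 at the tested level, 12 were higher with hairpin 2 (0.16 to 0.47) and 7 with hairpin 5 (−0.40 to 0.73). MCM4 alone gives 5 of the 12 and most of the 7. Probe sets of 1 gene on the same arrays are not independent readings. The sign with hairpin 2 was kept for 6 of 6 genes after median centring and after cyclic loess, while the values with hairpin 5 depended on the setting. There 3 of 6, rather than 2, were above the control after cyclic loess, with the mean of all probe sets and with the mean of those at the tested level, and the median of −0.07 became 0.02, 0.09 and 0.13.

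The helicase loaders did not share 1 direction. CDC6, an ATPase that helps load the helicase, differed by 0.28 and −0.23, and CDT1, its partner, by 0.24 and −0.11. ORC1, the largest subunit of the origin recognition complex, differed by −0.13 and 0.16. ORC6, another subunit, was the 1 licensing gene below the control with both hairpins, at −0.05 and −0.22. On these brightest probe sets the control lay between the hairpins for CDC6, CDT1 and ORC1. For ORC6 it lay above both, nearer to hairpin 2 than the hairpins were to each other. The second probe set of CDC6 was above the control with both hairpins (0.11 and 0.05). That of CDT1 was below it with both (−0.05 and −0.73).

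**Figure D3:**
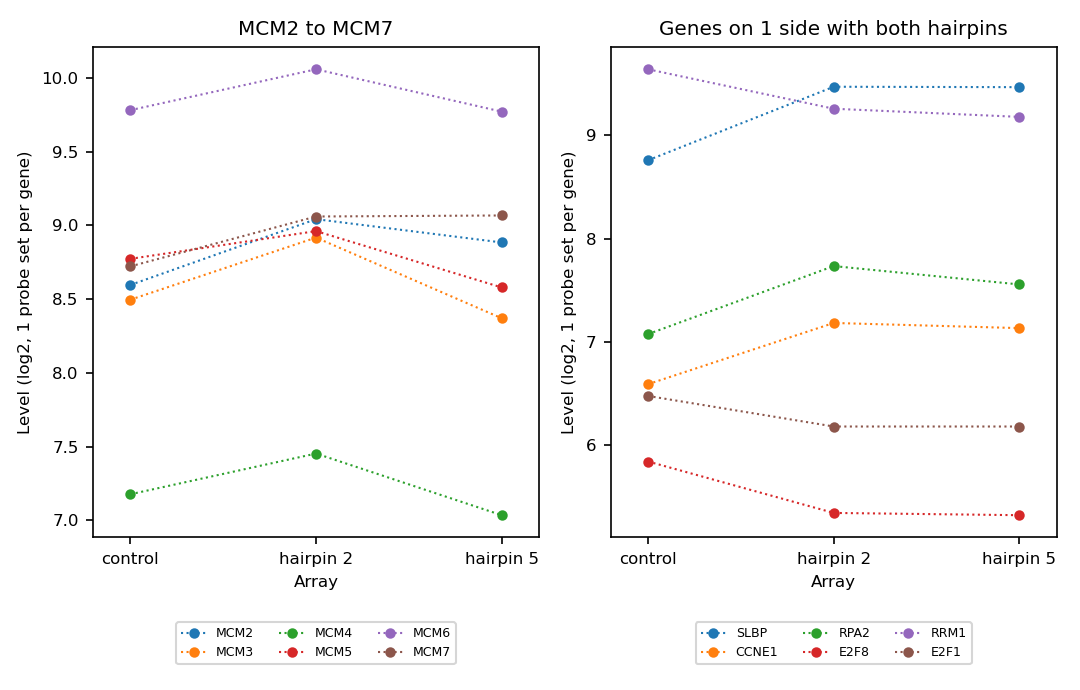
Level on each array (log2, vertical axis) of MCM2 to MCM7 at left and of 6 genes that lay on 1 side of the control with both hairpins at right; each point is 1 array and dotted lines join the points of a gene. At left every gene is highest with hairpin 2 except MCM7, which reads 9.06 and 9.07; at right SLBP, CCNE1 and RPA2 are above the control on both hairpin arrays and E2F8, RRM1 and E2F1 below it. Heights of different genes are not comparable.

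Some promoters of these genes hold motif letters, which the choice of genes by symbol did not use directly. E2F factors switch on many such genes, so the choice by role bears on the share with E2F-type letters. RefSeq promoters (GRCh38.p14) were matched for 40 of the 49 genes, at 50 start sites, and the 250 bases before each start were searched on both strands. The E2F-type letters searched were TTTGGCGC, TTTCCCGC, TTTGGCGG, TTTCGCGC, TTTCCCGG and TTTGCCGC. At least 1 of them stood before 19 of 50 member starts (38%), beside 6.68% of the 13915 starts of genes tested and 4.51% of all 35116 starts. Base composition differs too: the median GC content was 68% before member starts, 64.8% for genes tested and 58% for all. CCAAT, the letters bound by NF-Y, stood before 58% of member starts, 32.6% of those of genes tested and 32.0% of all. TTTGAA, the core of the cell cycle homology region of G2 and mitosis genes, stood before 4% of member starts, 8.86% of those of genes tested and 13.3% of all. A match stood before 5 of the 14 genes higher with both hairpins, 5 of the 11 lower and 8 of the 15 of opposite sign, so genes of each direction held such letters.

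Promoters are shown for SLBP, the member highest with both hairpins, for MCM6 and MCM7 as helicase subunits, and for E2F1, which encodes a factor of the family that binds such letters and was itself lower with both. MCM6 has the most matches of any member, 4. Its letters form a pair of blocks in which TTTGGCGC and the reverse of TTTCGCGC overlap, starting 152 and 90 bases before the start. For MCM7 the start with the most matches is shown. Capitals mark the E2F-type letters and CCAAT on either strand, and each sequence runs 5′ to 3′ on the gene's strand and ends at the base before the start.
SLBP, chr4:1712320-1712569, minus strand: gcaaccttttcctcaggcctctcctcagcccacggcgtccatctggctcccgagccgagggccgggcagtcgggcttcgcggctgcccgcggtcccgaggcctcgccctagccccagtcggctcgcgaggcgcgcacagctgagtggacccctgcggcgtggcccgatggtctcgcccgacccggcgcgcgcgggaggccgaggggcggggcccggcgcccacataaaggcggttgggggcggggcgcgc
MCM6, chr2:135876444-135876693, minus strand: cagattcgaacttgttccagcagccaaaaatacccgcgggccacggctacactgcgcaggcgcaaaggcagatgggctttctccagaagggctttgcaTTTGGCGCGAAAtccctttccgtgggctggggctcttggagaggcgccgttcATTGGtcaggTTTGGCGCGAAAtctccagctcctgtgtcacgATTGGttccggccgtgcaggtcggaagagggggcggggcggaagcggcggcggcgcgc
MCM7, chr7:100101398-100101647, minus strand: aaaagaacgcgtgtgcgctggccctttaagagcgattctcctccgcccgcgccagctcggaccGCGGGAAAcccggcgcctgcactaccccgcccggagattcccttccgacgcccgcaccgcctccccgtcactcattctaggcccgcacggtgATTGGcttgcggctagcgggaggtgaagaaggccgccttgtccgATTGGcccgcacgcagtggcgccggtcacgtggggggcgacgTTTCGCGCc
E2F1, chr20:33686386-33686635, minus strand: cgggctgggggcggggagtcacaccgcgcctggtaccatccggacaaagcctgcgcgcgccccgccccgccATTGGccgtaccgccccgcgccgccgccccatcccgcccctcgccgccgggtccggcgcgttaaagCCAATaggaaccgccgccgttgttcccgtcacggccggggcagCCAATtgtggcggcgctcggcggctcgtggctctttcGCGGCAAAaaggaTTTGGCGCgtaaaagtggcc
SLBP holds neither set of letters in this window, and E2F1 holds 2 E2F-type matches and 3 CCAAT. A match is a description of letters and not of a bound site.

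Fork genes spread to both sides of the control. The 19 had medians of 0.01 and −0.06, with 4 higher with both hairpins, 7 lower and 8 of opposite sign. Of all genes tested 29.0% were higher with both, 32.3% lower and 38.7% of opposite sign or without a difference. RPA2, the middle subunit of the protein that coats single-stranded DNA, read 7.07, 7.73 and 7.56. It was 1.58-fold and 1.40-fold higher (mean difference 0.57 ± 0.13, SD, n = 2 hairpins), and both hairpin arrays lay above the control by more than their gap. That SD leaves out the error of the control array. The limma 95% interval of the RPA2 mean difference was −0.11 to 1.25, which includes no difference. RPA1, the large subunit, differed by 0.05 and −0.06 on its brightest probe set and by 0.30 and 0.29 on the next, which read 8.38, 8.68 and 8.67. RPA3, the small subunit, differed by −0.18 and −0.24.

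FEN1, the nuclease that trims Okazaki fragment flaps, read 8.48, 8.79 and 8.79 on its brighter probe set. Its second probe set read 6.36, 7.30 and 7.38, which is 0.94 and 1.02 higher, against 0.30 and 0.31 on the first. Both probe sets of FEN1 put both hairpins above the control, but the size differs between them by more than the hairpins do. LIG1, the ligase that joins those fragments and whose methylated form UHRF1 is known to bind, differed by −0.15 and −0.40. PCNA, the clamp that both enzymes bind, differed by 0.11 and 0.18.

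Of the clamp loader subunits RFC1 to RFC5, RFC1 was lower with both hairpins (−0.22 and −0.45), and RFC2, RFC3, RFC4 and RFC5 were of opposite sign. DSCC1, part of an alternative clamp loader, differed by −0.16 and −0.06, while its second, dimmer probe set gave 0.115 and 0.042. Of the GINS subunits, GINS1 read 7.86, 7.83 and 6.80. Hairpin 5 was thus 2.08-fold below the control while hairpin 2 was level with it, which is the largest gap between the hairpins among fork genes. GINS4 went the other way, at 5.74, 6.35 and 5.69, with hairpin 2 alone above the control. GINS2 differed by 0.27 and −0.04 and GINS3 by 0.01 and 0.01, so the subunits of this complex had no common direction. MCM10, which helps activate the helicase, read 5.98, 5.52 and 5.75, below the control with both hairpins, as was its second probe set (−0.15 and −0.39), while its dimmest probe set was above (0.10 and 0.16). CDC45 differed by −0.08 and −0.23. CLSPN, the claspin gene of the fork checkpoint, was near the tested level on its brightest probe set, at 3.32, 3.59 and 3.32.

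Polymerase genes had medians of −0.08 and −0.19, with 2 of 8 higher with both hairpins, 3 lower and 3 of opposite sign. The shares over all genes tested were again 29.0%, 32.3% and 38.7%. POLA1, the catalytic subunit of polymerase alpha, read 4.43, 4.94 and 3.69. The control lay between the hairpins (0.52 and −0.73), which were further apart than for any other member. PRIM1, the catalytic primase subunit, read 8.49, 8.10 and 8.25, below the control on both arrays, and its partner PRIM2 differed by −0.16 and −0.42. POLD1, the catalytic subunit of polymerase delta, differed by 0.00 and −0.51. The catalytic subunit of polymerase epsilon, POLE, differed by −0.26 and 0.11. Of the accessory subunits, POLA2 differed by 0.11 and 0.03, POLE2 by 0.06 and 0.16 and POLD3 by −0.15 and −0.15, while a second POLD3 probe set gave −0.22 and 0.07.

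Nucleotide supply genes lay on 1 side of the control with both hairpins in 4 of 4, 3 higher and 1 lower. Of all genes tested 29.0% were higher, 32.3% lower and 38.7% of opposite sign or without a difference. Lying on 1 side was thus the more common case among all genes too. The lower gene was RRM1, the large subunit of ribonucleotide reductase, which makes deoxyribonucleotides. It read 9.64, 9.26 and 9.18, and its second probe set was also below the control with both (−0.05 and −0.21). The small subunit, RRM2, was on the other side, at 10.72, 10.98 and 11.03. Its second probe set did not show this (−0.05 and −0.06). TK1, the salvage thymidine kinase, differed by 0.34 and 0.28 on the brighter probe set and by 0.40 and 0.12 on the other. TYMS, which makes thymidylate, differed by 0.03 and 0.12 on its brightest probe set and by 0.36 and 0.45 on the next.

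SLBP, which binds the stem-loop of histone mRNAs and lets them be processed and translated, was the member furthest from the control with both hairpins. It read 8.76, 9.47 and 9.47, which is 1.64-fold and 1.63-fold higher. The hairpin arrays nearly coincided and both lay above the control. The mean difference was 0.71 ± 0.0028 (SD, n = 2 hairpins), with a limma 95% interval of 0.05 to 1.37, an unadjusted limma p of 0.0385 and an adjusted limma p of 0.999. SLBP has 1 probe set, so no second reading was at hand. The subunits of chromatin assembly factor 1, which places histones on new DNA beside PCNA, were also higher with both, CHAF1A by 0.14 and 0.31 and CHAF1B by 0.22 and 0.17. A second CHAF1A probe set gave 0.29 and −0.04. UNG, which removes uracil from DNA, differed by −0.14 and −0.03.

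The regulators of S phase entry split by kind, with both cyclin E genes higher and both E2F genes lower. Over all genes tested 29.0% were higher with both hairpins and 32.3% lower. CCNE1 read 6.59, 7.18 and 7.13, which is 1.51-fold and 1.46-fold higher (mean difference 0.57 ± 0.04, SD, n = 2 hairpins). Its other probe set lay under the tested level and differed by 0.02 and 0.13. CCNE2 was 0.23 and 0.16 higher, and its other probe set, also under the tested level, differed by −0.03 and −0.17. E2F8, a repressor of the family, read 5.84, 5.34 and 5.32, which is 1.41-fold and 1.43-fold lower (−0.51 ± 0.02, SD, n = 2 hairpins), and E2F1, an activator, read 6.48, 6.18 and 6.18. In each of these genes the hairpins were closer to each other than to the control. The spread between hairpins leaves out the error of the control array. In limma the 95% interval of the mean difference included no difference for each of them. It was −0.09 to 1.23 for CCNE1 and −0.47 to 0.85 for CCNE2. For E2F8 it was −1.17 to 0.15, and for E2F1 −0.95 to 0.36. Among the other family members, looked up after these values were seen, E2F7 (−0.33 and −0.35), E2F2 (−0.12 and −0.43) and E2F3 (−0.13 and −0.33) were also lower with both hairpins. E2F4 (−0.17 and 0.05) and E2F6 (0.25 and −0.03) had opposite signs, and E2F5, under the tested level, was 0.29 and 0.11 higher. When all probe sets of a gene were averaged, 3 of the 8 E2F genes, rather than 2, were above the control with each hairpin. Cyclic loess put 3 above it with hairpin 5. Before either change, 53.6% of all genes tested were above the control with hairpin 2 and 42.7% with hairpin 5.

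Where a gene had several probe sets, they often disagreed. Of 28 members with more than 1, 22 had at least 2 at the tested level, and in 14 of these 22 the mean differences of the probe sets had the same sign. In 7 of 22 every probe set at that level lay on 1 side of the control with both hairpins: E2F1, FEN1, MCM7, RFC1, RRM1, TK1 and TYMS. RFC5 was the most divided. Its brightest probe set differed by 0.01 and −0.42, the next by 0.37 and 0.12, and the third, which read 4.94, 3.66 and 3.19, by −1.28 and −1.75. In CDT1 the probe sets gave 0.24 and −0.11 against −0.05 and −0.73. The 5 probe sets of MCM4 were each higher with hairpin 2, and 4 of them also with hairpin 5. Another 4 probe sets shared by PRIM2 and a related gene were left out.

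**Figure D4:**
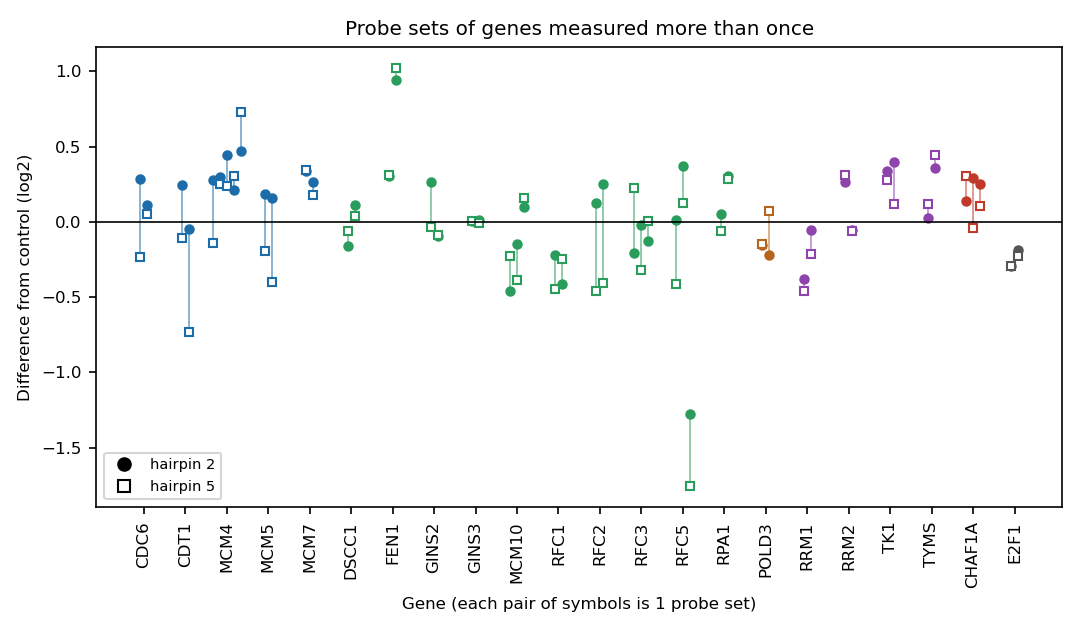
Difference from control (log2, vertical axis) of each probe set at the tested level, for the 22 genes with at least 2 such probe sets; each joined circle (hairpin 2) and square (hairpin 5) is 1 probe set, brightest at left. The third RFC5 probe set, at −1.28 and −1.75, and the second FEN1 probe set, at 0.94 and 1.02, lie far from the other probe sets of those genes.

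Between the hairpins, 32 of 49 members (65.3%) read higher with hairpin 2 than with hairpin 5, beside 61.0% of all genes tested. The hairpins were at least 1.5-fold apart in 4 members (GINS1, GINS4, POLA1 and RFC2), which is 8.16% beside 14.7% of all genes. Taken alone, hairpin 2 was at least 1.5-fold above the control in 4 members (CCNE1, GINS4, RPA2 and SLBP, 5.93% of all genes tested) and 1.5-fold below in 0 (3.14% of all). Hairpin 5 was that far above in 1 (SLBP, 2.84% of all) and below in 2 (GINS1 and POLA1, 9.79% of all). With 1 array per hairpin these counts have no replicate check. A list of 20 G2 and mitosis genes, which follow S phase genes in the cycle, had medians of −0.04 and −0.09, beside 0.03 and −0.06 over all genes tested. With both hairpins 11 of the 20 (55%) were lower, where 32.3% of all genes were, and 6 (30%) were higher, where 29.0% were.

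Among 74 other replication genes 73 were on the array under 1 name and 70 were tested. With both hairpins 18 (25.7%) were higher and 22 (31.4%) lower, near the 29.0% and 32.3% of all genes tested. In limma 0 passed at an adjusted or unadjusted p under 0.05, where 2.33% of all genes tested were under the unadjusted threshold. DBF4, the activating subunit of the kinase that fires origins, read 7.84, 7.17 and 7.27. MTBP, which acts in origin firing, read 3.79, 3.20 and 3.17 and was the 1 gene of this list at least 1.5-fold from the control with both hairpins, though on the hairpin arrays it lay under the tested level. TOPBP1, which acts at the same step, differed by −0.35 and −0.39. All 3 were lower on both hairpin arrays. The kinase's catalytic partner CDC7 differed by 0.29 and −0.33. The genes furthest above the control with both hairpins were ORC5 (0.46 and 0.30), FBXO5, an inhibitor of the anaphase-promoting complex (0.30 and 0.34), NASP, a histone chaperone (0.29 and 0.28), and TFDP2, a partner of E2F factors (0.45 and 0.26). DNMT1 differed by 0.12 and −0.31.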

How the data were processed

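Each array gave a log2 expression value per probe set, deposited by the authors; the submitters' processing notes name RMA and Affymetrix Expression Console, and their versions are not given in the sources used here. The log2 base was inferred from the deposited range, centring is unstated, and no detection calls were used. Probe sets were named through the platform annotation, with symbols checked against RefSeq (GRCh38.p14), which changed 0. Each gene was its probe set with the highest mean, and genes at or above the 40th percentile were tested in limma 3.58.1 under R 4.3.3 (lmFit, eBayes), 1 control against 2 hairpin arrays, two-sided, Benjamini-Hochberg adjusted. Moderated degrees of freedom were 5.77. An exact permutation over the 3 splits cannot go below p = 0.333. Simulated data given the same spread on all 3 arrays were used to check the fit, so the assumed spread of the control was not checked. Opposite signs include a difference of 0. Precision is limited by having 3 arrays.

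Members and lists were chosen with earlier results of these data known. Members were given per array where 1.5-fold from the control with both hairpins or among the 3 highest or lowest of a hairpin, with the leading gene of each role. Up to 4 other replication genes per direction were named by the smaller of their hairpin differences, plus UHRF1 and DNMT1. Further genes were named after their values were seen. Alternatives covered the filter, the probe set rule, scaling, the variance prior, the fold and each hairpin left out.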

Additional observations from a re-analysis of the deposited data

How the results depend on the processing

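The member counts, medians and limma counts kept within 1.5 times or within the spread between hairpins under no filter, a 60th percentile filter, other probe set rules, median centring and cyclic loess, with the exceptions given here. Members higher with both hairpins numbered 14 to 19 and lower ones 14 to 17. With an intensity trend limma called 1 gene, no member, rather than 0. Members at least 1.5-fold higher with both hairpins were 2 rather than 1 with the mean of all probe sets or, chosen after seeing the data, of those at the tested level, since FEN1 joined SLBP. At 2-fold there were 0. Leaving out a hairpin leaves 1 array against 1, with no test. Members higher then numbered 19 to 31 and lower 18 to 30, those 1.5-fold higher 1 to 4 and 1.5-fold lower 0 to 2. Leaving out hairpin 5 gave the 31, 18, 4 and 0, and leaving out hairpin 2 the 19, 30, 1 and 2. UHRF1 then differed by −2.35 to −1.88. The polymerase median with hairpin 5 was −0.0585 at the 60th percentile filter, where fewer polymerase genes pass, and the histone and chromatin median with hairpin 5 was 0.0665 without probe sets ending in _x_at, where CHAF1A is read on another probe set. The member median with hairpin 5 was 0.02 with cyclic loess and −0.08 with median centring. The mean difference changed sign under at least 1 setting for 7 of 49 members (CDT1, GINS2, GINS3, MCM5, MCM6, RFC3 and RPA1), none of them further than 0.13 from 0. No paired analysis was possible because the labels give no replicate numbers and there is 1 control array.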
